A study of Mus musculus with 6 samples.

Results

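The hypoxia-inducible factor (HIF) subunits and the enzymes that gate them by oxygen were followed as 10 genes, taken from the deposited tables by symbol. They were the alpha subunit genes *Hif1a*, *Epas1* and *Hif3a*, the beta subunit genes *Arnt* and *Arnt2*, the prolyl hydroxylase genes *Egln1*, *Egln2* and *Egln3*, the ubiquitin ligase gene *Vhl* and the asparaginyl hydroxylase gene *Hif1an*. Each symbol named 1 of the 56884 gene identifiers, and 8 of the 10 genes were expressed highly enough to be tested among 15426 genes. The libraries came from an immortalised mouse line of stromal vascular fraction (SVF) cells, the non-adipocyte cells of fat, from subcutaneous white adipose tissue (scWAT). A pair of mutant forms of the adipogenic nuclear receptor PPARγ2 was compared. Each was delivered by retrovirus, selected for with puromycin and overexpressed on top of the cells' own gene. K382Q, a glutamine for lysine exchange, stands for the acetylated receptor, and K382R, an arginine for lysine exchange, for the deacetylated one. Both groups were sampled on day 2 of beige adipogenic differentiation in a medium of isobutylmethylxanthine, indomethacin, dexamethasone, insulin, T3 and rosiglitazone, a PPARγ ligand, and the line was kept in 5% CO2 at 37 °C. There were 3 biological replicates of each mutant. The design had neither an empty-vector or wild-type group nor a low-oxygen arm, so a difference between the mutants cannot be assigned to a rise in one or a fall in the other.

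HIF is a heterodimer of an oxygen-labile alpha subunit and a constitutive beta subunit. In oxygen, EGLN prolyl hydroxylases mark the alpha subunit, VHL then recruits it to a ubiquitin ligase, and HIF1AN, also called FIH, blocks its transactivation domain by hydroxylating an asparagine. When oxygen falls the alpha subunit escapes, pairs with ARNT and binds hypoxia response elements, whose core reads ACGTG or GCGTG. *Egln1* and *Egln3* are themselves well-known HIF targets, so that the hydroxylases form a negative feedback on the factor, while *Egln2* is not known to be induced by low oxygen. The control acts largely on protein, which was not measured here. In adipose tissue, HIF1α is known for the hypoxic and fibrotic response of expanding fat.

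Promoter sequences are shown for the 3 EGLN genes, whose changes differed in direction, and for *Hif1a*, the alpha subunit with the largest difference. They are the 250 bases before the RefSeq start of each gene, on the gene's own strand, from RefSeq on GRCm38.p6, and each was found once on its chromosome of GRCm39, whose coordinates are given. The RefSeq starts are not always the outer end of the gene in the deposited tables: the *Hif1a* window lies wholly inside the deposited span of the gene and the *Egln1* window partly. Capitals mark the HIF core letters ACGTG or GCGTG, or their reverse complements CACGT and CACGC.
Egln1, chr8:125675994-125676243, minus strand: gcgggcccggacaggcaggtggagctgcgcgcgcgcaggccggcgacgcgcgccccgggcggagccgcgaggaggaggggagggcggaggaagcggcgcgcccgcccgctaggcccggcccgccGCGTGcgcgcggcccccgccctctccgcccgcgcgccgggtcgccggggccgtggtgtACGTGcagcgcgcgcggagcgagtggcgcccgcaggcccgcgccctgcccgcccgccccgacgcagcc
Egln2, chr7:26866228-26866477, minus strand: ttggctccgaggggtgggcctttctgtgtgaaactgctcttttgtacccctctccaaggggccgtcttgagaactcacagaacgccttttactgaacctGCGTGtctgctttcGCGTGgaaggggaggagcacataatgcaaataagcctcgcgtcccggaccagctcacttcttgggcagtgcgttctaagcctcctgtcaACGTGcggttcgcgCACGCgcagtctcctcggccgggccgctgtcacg
Egln3, chr12:54250661-54250910, minus strand: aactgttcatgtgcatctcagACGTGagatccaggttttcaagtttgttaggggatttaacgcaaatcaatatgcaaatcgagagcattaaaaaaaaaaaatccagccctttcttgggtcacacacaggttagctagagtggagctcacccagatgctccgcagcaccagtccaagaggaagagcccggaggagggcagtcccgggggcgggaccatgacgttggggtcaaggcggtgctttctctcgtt
Hif1a, chr12:73954391-73954640, plus strand: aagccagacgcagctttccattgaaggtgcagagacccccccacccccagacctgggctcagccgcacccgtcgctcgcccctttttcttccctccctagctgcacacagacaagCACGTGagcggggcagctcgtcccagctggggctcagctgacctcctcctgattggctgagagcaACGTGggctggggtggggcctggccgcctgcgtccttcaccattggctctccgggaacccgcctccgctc
Core letters occurred at 2 places in the *Egln1* window, the nearer at 68 bases before the start, at 4 in *Egln2* and at 1 in *Egln3*, at 229 bases before the start. In the *Hif1a* window, 3 matches were counted, of which 2 overlap in the palindrome CACGTG. Of the 9 genes with a RefSeq window, *Epas1* being the one without an entry, 6 held at least 1 match in their first window, as did 38.6% of all 32841 windows and 56.9% of the first windows of 10216 genes tested. The first windows of *Vhl*, *Arnt2* and *Hif1an* held no match. A match describes letters and not binding.

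Expression was given as TPM, a level per transcript length and library total, and no read counts were used. The aligned sequence behind a library, worked out from the deposited coverage and FPKM, was between 5.95 and 8.15 Gb. *Pparg* reads, in which the cells' own gene and the retroviral copy cannot be told apart, were at 1104 to 1333 TPM in K382Q and 1590 to 1632 TPM in K382R cells. The tested difference throughout is K382Q minus K382R in log2(TPM + 0.5), fitted with limma over all 15426 genes and adjusted by the Benjamini-Hochberg method. At an adjusted p under 0.05, 48.1% of all genes tested were called, 11.1% as higher and 36.9% as lower in K382Q cells. The median gene was at -0.14 log2, so part of a small negative value is the shift of the whole library, and median-ratio scaling of TPM brought that median to 0.0032. With that scaling 19.8% of the genes were called higher and 20.4% lower.

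Among the 8 genes tested, 3 were higher in K382Q cells (*Egln1*, *Egln3* and *Vhl*) and 4 lower (*Hif1a*, *Epas1*, *Arnt* and *Egln2*), while *Hif1an* did not pass the test. Against the 11.1% of all genes called higher and the 36.9% called lower, these are too few genes for a share to be read. All 8 had no overlap between the mutants, as had 57.0% of all genes tested. With the further condition of a fold change over 2, which 3.88% of all genes met, *Egln3* remained. The replicates lay close together, with a coefficient of variation of 0.384% to 5.85% for the genes tested.

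**Figure D1:**
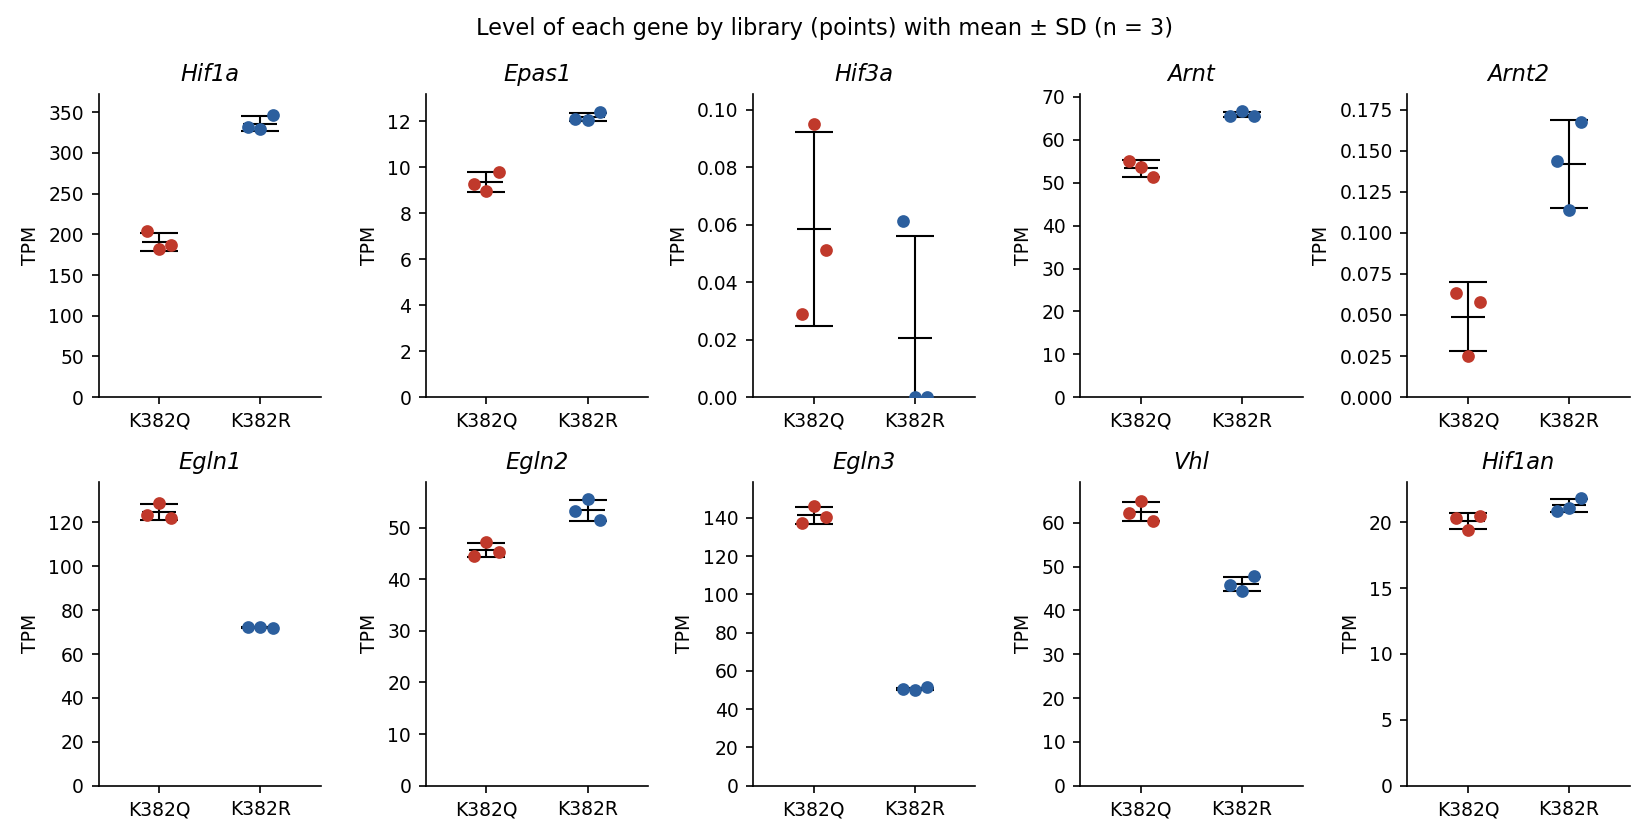
Level of each of the 10 genes in TPM (vertical axes, from 0, each with its own scale) in the 3 libraries of K382Q (red) and K382R (blue) cells, with the mean and SD as a bar. The alpha and beta subunit genes *Hif1a*, *Epas1* and *Arnt* sit lower in K382Q cells and *Egln1*, *Egln3* and *Vhl* higher, while *Hif3a* and *Arnt2* stay under 0.2 TPM (for *Hif3a* in K382R cells the SD reaches below 0 and is clipped).

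Both alpha subunit genes tested were lower in K382Q cells. *Hif1a* (chr12:73948149-73994304, GRCm39, plus strand), which encodes the broadly expressed HIF1α, was at 203.6, 182.1 and 187.5 TPM in the 3 K382Q libraries and at 331.6, 329.6 and 346.9 TPM in the 3 K382R libraries. The highest K382Q library was well under the lowest K382R library. Its log2 fold change was -0.81 (SE 0.0456, 95% CI -0.92 to -0.71, adjusted p = 7.41e-06, limma), a level 1.76 times as high in K382R cells. It was the 731st largest fall among the genes tested. *Hif1a* overlaps over all its length an antisense entry, *Gm15283*, and the library kit does not mark strand. The antisense entry was listed at 0.616 to 0.938 TPM.

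*Epas1* (chr17:87061128-87140838, plus strand), which encodes HIF2α, was expressed at a far lower level. It was at 9.27, 8.97 and 9.81 TPM in K382Q cells and at 12.1, 12.1 and 12.4 TPM in K382R cells, again with no overlap. The log2 fold change was -0.37 (SE 0.0625, adjusted p = 0.00195, limma), or -0.23 relative to the median gene, and it was -0.22 with median-ratio scaling (adjusted p = 0.023) and with quantile normalization (adjusted p = 0.0226). *Hif3a* (chr7:16765432-16796352, minus strand), whose product includes forms that oppose the other alpha subunits, was near the limit of detection. Its TPM was 0.0289, 0.0952 and 0.0513 in K382Q cells and 0.0615, 0 and 0 in K382R cells, so that the groups overlapped and it was not tested.

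On TPM, *Hif1a* was the main alpha subunit gene in both mutants, at 95.3% ± 0.317 of the summed TPM in K382Q and 96.5% ± 0.0471 in K382R cells (SD, n = 3). The *Epas1* share was 4.67% ± 0.309 and 3.50% ± 0.043. By coverage per base, *Hif1a* was 78.2% to 80.5% of the sum in K382Q and 83.7% to 84.0% in K382R libraries, and the *Epas1* share had means of 20.6% and 16.2%. *Epas1* thus fell less than *Hif1a*, and the log2 ratio of *Epas1* to *Hif1a* within a library was 0.43 higher in K382Q cells (pooled SD 0.0724), with no overlap. Ratios within a library do not depend on its scaling. They are given as descriptions, with no test.

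Of the beta subunit genes, *Arnt* (chr3:95341699-95404551, plus strand), the obligate partner of the alpha subunits, was at 55.2, 53.6 and 51.3 TPM in K382Q cells. In K382R cells it was at 65.5, 66.7 and 65.6 TPM, above every K382Q library. The log2 fold change was -0.30 (SE 0.0378, adjusted p = 0.000403, limma), or -0.17 relative to the median gene. Under median-ratio scaling it was -0.15 and still called, with an adjusted p of at most 0.0151 over all alternatives. *Arnt2* (chr7:83895486-84059384, minus strand), the paralog used mainly in neurons, was listed at 0.0637, 0.0249 and 0.058 TPM in K382Q cells and at 0.144, 0.114 and 0.168 TPM in K382R cells. These levels were under the 0.5 TPM needed for testing and did not overlap. With no filter on low values its log2 fold change was -0.23 (adjusted p = 0.0376, limma). At these levels the 0.5 added before the log pulls that value toward 0, and the mean TPM itself was 2.90 times as high in K382R cells. *Arnt* carried 99.9% ± 0.039 of the beta subunit TPM in K382Q and 99.8% ± 0.0424 in K382R cells. *Arnt* fell less than *Hif1a*, by 0.51 on the log2 ratio of the pair (pooled SD 0.0577).

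The prolyl hydroxylase genes moved apart from each other. *Egln3* (chr12:54225767-54250646, minus strand), which encodes PHD3, the most strongly hypoxia-induced of the family in many cells, was at 137.2, 146.3 and 140.2 TPM in K382Q cells. In K382R cells it was at 50.3, 50.2 and 51.4 TPM. Every K382Q library was far above every K382R library. Its log2 fold change of 1.47 (SE 0.0352, 95% CI 1.39 to 1.55, adjusted p = 2.77e-07, limma) corresponds to 2.77-fold and was the 65th largest rise of all genes tested.

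*Egln1* (chr8:125635326-125676063, minus strand), which encodes PHD2, the main HIF prolyl hydroxylase in oxygen, was at 123.2, 129.0 and 122.0 TPM in K382Q cells and at 72.3, 72.3 and 71.8 TPM in K382R cells. All K382Q libraries were higher, and the K382R libraries hardly differed from each other. The log2 fold change was 0.79 (SE 0.0328, 95% CI 0.71 to 0.86, adjusted p = 2.31e-06, limma), or 1.72-fold.

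*Egln2* (chr7:26858083-26866227, minus strand), which encodes PHD1, went the other way by a small amount. It was at 44.4, 47.1 and 45.3 TPM in K382Q cells and at 53.2, 55.5 and 51.4 TPM in K382R cells, with no overlap. The log2 fold change was -0.22 (SE 0.0432, adjusted p = 0.00371, limma), which is -0.09 from the median gene. The call was lost under median-ratio scaling (log2 fold change -0.07, adjusted p = 0.258) and quantile normalization (-0.06, adjusted p = 0.344), with adjusted p-values between 0.00311 and 0.344 over all alternatives.

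The make-up of the EGLN family differed between the mutants. *Egln3* was 45.3% ± 0.292 of the summed EGLN TPM in K382Q cells and 28.8% ± 0.619 in K382R cells. *Egln2* was 14.6% ± 0.0792 and 30.3% ± 0.864, and *Egln1* 40.0% ± 0.366 and 41.0% ± 0.294. On TPM the share of *Egln1* thus hardly moved, while *Egln3* gained about what *Egln2* lost. With coverage per base in place of TPM, K382Q minus K382R was 14.1 percentage points for *Egln3*, -7.16 for *Egln1* and -6.97 for *Egln2*. Within a library, the log2 ratio of *Egln3* to *Egln2* was 1.63 ± 0.00361 in K382Q and -0.07 ± 0.0717 in K382R cells. The log2 ratio of *Egln1* to *Egln2* was 1.45 ± 0.0208 and 0.44 ± 0.0505. Neither ratio overlapped between the mutants.

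*Vhl* (chr6:113600920-113608594, plus strand), the substrate receptor that binds hydroxylated alpha subunits, was at 62.3, 65.0 and 60.5 TPM in K382Q cells. It was at 45.9, 44.4 and 47.8 TPM in K382R cells, below each K382Q library. The log2 fold change was 0.44 (SE 0.0439, adjusted p = 0.000131, limma), or 1.36-fold. *Hif1an* (chr19:44551289-44564713, plus strand) was at 20.3, 19.4 and 20.5 TPM in K382Q and 20.9, 21.1 and 21.8 TPM in K382R cells. The libraries lay side by side without overlapping. Its log2 fold change was -0.08 (SE 0.0483, 95% CI -0.19 to 0.03, adjusted p = 0.202, limma), and it was 0.07 with median-ratio scaling and 0.08 with quantile normalization.

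**Figure D2:**
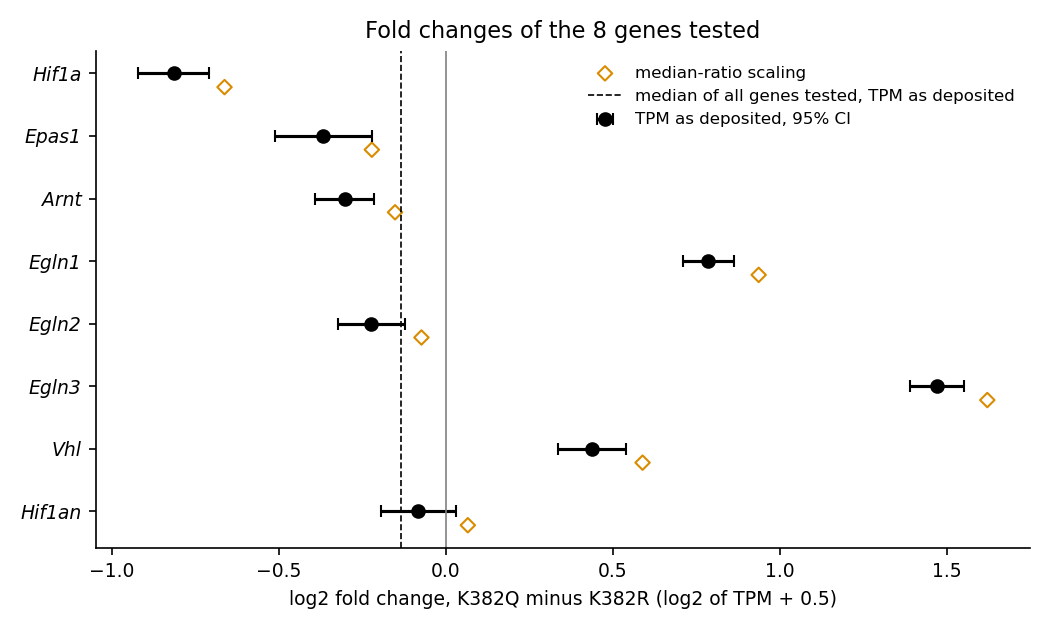
Log2 fold change, K382Q minus K382R, of the 8 genes tested on TPM as deposited (black points, 95% CI) and after median-ratio scaling of TPM (open diamonds). The dashed line is the median of all genes tested at -0.14, and *Egln3*, *Egln1* and *Vhl* lie to its right while *Hif1a*, *Epas1* and *Arnt* lie to its left with their intervals.

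The EGLN genes were higher relative to the alpha subunit genes in K382Q cells. The summed TPM of the 3 alpha subunits was 200.5 ± 11.2 in K382Q and 348.2 ± 9.68 in K382R cells, and that of the 3 EGLN genes 311.6 ± 9.47 and 176.1 ± 1.70 (SD, n = 3). The EGLN sum was 1.43, 1.69 and 1.56 times the alpha sum in the K382Q libraries and 0.511, 0.521 and 0.486 times in the K382R libraries. The sum of the EGLN genes was thus above the alpha sum in each K382Q library and below it in each K382R library on TPM. By coverage per base the EGLN sum was the larger in all 6 libraries, at 5.85 to 6.80 times the alpha sum in K382Q and 1.82 to 1.92 times in K382R libraries. The log2 ratio of *Egln3* to *Hif1a* was -0.57, -0.32 and -0.42 in K382Q and -2.72, -2.71 and -2.76 in K382R cells, a difference of 2.30 (pooled SD 0.0914). For *Egln1* and *Hif1a* the difference was 1.61 (pooled SD 0.0866).

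**Figure D3:**
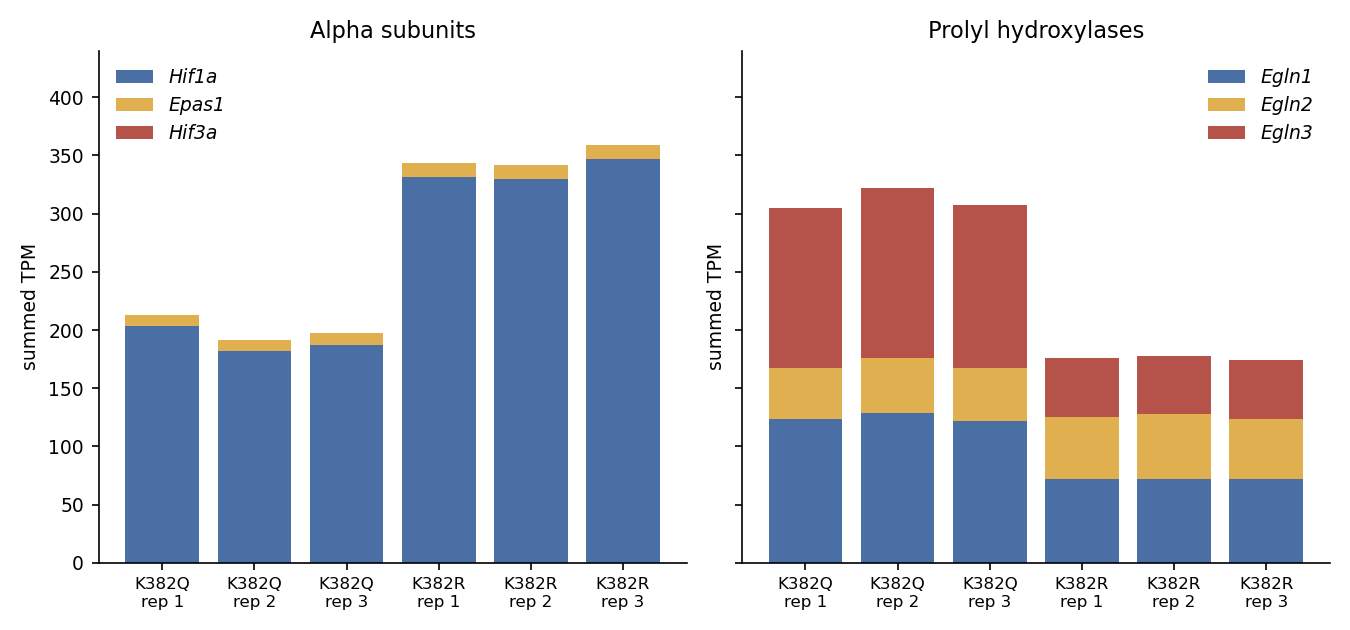
Summed TPM (vertical axis, from 0) of the alpha subunit genes (left) and of the EGLN genes (right) in each of the 6 libraries, stacked by gene. The alpha sum is 191.2 to 212.9 in K382Q and 341.6 to 359.4 in K382R libraries, and the EGLN sum 304.9 to 322.4 and 174.6 to 178.0, and within the EGLN stack *Egln3* is the block that differs most.

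By TPM, the order of levels in K382R cells was *Hif1a*, *Egln1*, *Arnt*, *Egln2*, *Egln3*, *Vhl*, *Hif1an* and *Epas1*. *Egln2* and *Egln3* were the closest neighbours there, at 53.3 ± 2.04 and 50.6 ± 0.65 TPM, and the lowest *Egln2* and the highest *Egln3* library were both at 51.4 TPM. In K382Q cells the order was *Hif1a*, *Egln3*, *Egln1*, *Vhl*, *Arnt*, *Egln2*, *Hif1an* and *Epas1*, and no neighbours overlapped. Levels between genes depended on whether TPM or coverage per base was used. How a gene with several transcripts is summed may enter here and was not tested. The deposited coverage per base of *Hif1a* was 0.185 to 0.186 of what its FPKM implies, whereas it was 1.00 for *Egln1* and *Egln3*. By coverage per base and Gb aligned, *Egln3* (58.1 ± 1.78) and *Egln1* (51.3 ± 1.48) were above *Hif1a* (14.6 ± 0.894) in K382Q cells. In K382R cells *Egln1* (28.0 ± 0.274) was above *Hif1a* (24.2 ± 0.518) and *Egln3* (19.6 ± 0.172). The ranking of *Hif1a* above the hydroxylases therefore belongs to TPM. The ratio of coverage to FPKM hardly differed between libraries for *Hif1a*, so coverage and FPKM give nearly the same comparison of it between the mutants. Values per transcript were not examined. For *Arnt* the ratio of coverage to FPKM was 0.433 to 0.465 in K382Q and 0.406 to 0.435 in K382R libraries, ranges that touch. By coverage per base and Gb aligned, *Arnt* was at 9.86 ± 0.0735 in K382Q and 10.8 ± 0.219 in K382R cells. That is a smaller relative difference than the 53.4 and 65.9 TPM, so the size of the *Arnt* difference depends on the unit.

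Other genes of the pathway were taken from lists of general knowledge, beginning with negative feedback. The lists were written with earlier results of these data known, so their counts are descriptions and not a test. Of 11 genes that HIF induces and that restrain the response or adapt the cell, 8 were higher in K382Q cells and 1 was lower, beside 11.1% and 36.9% of all genes. The list's median was 0.99 log2, against -0.14 for all genes tested. With median-ratio scaling, 10 were higher and 0 lower, beside 19.8% and 20.4%. *Ankrd37*, a classical HIF1 target, was at 24.6, 29.6 and 25.8 TPM in K382Q and 7.41, 5.64 and 5.05 TPM in K382R cells (log2 fold change 2.07, SE 0.134, adjusted p = 1.55e-05, limma). *Bhlhe40*, which encodes the transcriptional repressor DEC1, rose by 1.37 (adjusted p = 3.77e-07, limma), and *Higd1a*, which encodes a mitochondrial protein of the respiratory chain, by 1.19 (adjusted p = 8.51e-07, limma). *Egln3*, at 1.47, lay between *Ankrd37* and *Bhlhe40*. *Cited2*, whose product competes with the alpha subunit for CBP/p300, was at 38.5, 41.4 and 38.5 TPM in K382Q and 43.3, 43.6 and 47.7 TPM in K382R cells (log2 fold change -0.18, adjusted p = 0.0221, limma), and the call was lost with median-ratio scaling (-0.03, adjusted p = 0.675).

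Among 40 canonical HIF targets, 32 were higher and 2 lower, with a median log2 fold change of 0.62, beside 11.1% and 36.9% of all genes. Of the 40, 10 rose by more than 2-fold, where 3.88% of all genes were called past that fold in either direction. The list shares 7 genes with the feedback genes, 63.6% of that list and 17.5% of its own. *Ndufa4l2*, a mitochondrial HIF1 target, had the largest rise in the list, from 1.75, 1.58 and 1.92 TPM in K382R cells to 24.7, 23.5 and 22.6 TPM in K382Q cells (log2 fold change 3.42, SE 0.0859, adjusted p = 2.93e-07, limma). *Ndrg1*, a stress-induced gene, rose by 1.64 (adjusted p = 8.51e-07, limma). The 2 that fell were *Pfkfb4*, a regulator of glycolytic flux, by 0.53 (adjusted p = 0.0181) and *Plod2*, a collagen lysyl hydroxylase, by 0.14 (adjusted p = 0.0113, limma). Both calls were lost under median-ratio scaling, where *Pfkfb4* was at -0.39 and *Plod2* at 0.01, with 34 targets higher and 0 lower (19.8% and 20.4% of all genes). The alpha subunit genes thus lay on the other side of 0 from most genes of the target list. Promoter windows of 27 of the 34 targets with an entry held a HIF core, 79.4% against 56.9% of the first windows of all genes tested, at a median GC content of 63.4% against 60.0%.

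Partners of VHL in its ligase did not rise with it. All 7 genes had values below 0, 4 of them passed the test (limma) and the median was -0.18 log2, close to the -0.14 of all genes, of which 36.9% were called lower. These were *Cand1* (-0.37), which exchanges cullin receptors, *Nedd8* (-0.29), the cullin modifier, *Ube2m* (-0.20), its conjugating enzyme, and *Rbx1* (-0.18), the RING subunit. The adaptor genes *Elob* (-0.02, adjusted p = 0.678, limma) and *Eloc* (-0.10, adjusted p = 0.13, limma) and the scaffold gene *Cul2* (-0.05, adjusted p = 0.584, limma) did not pass. With median-ratio scaling, 2 of the 7 were lower, *Cand1* and *Nedd8*, and 0 higher (20.4% and 19.8% of all genes). Under that scaling *Elob*, *Eloc* and *Cul2* were at 0.13, 0.05 and 0.10, also not called. With quantile normalization 3 of the 7 were lower, beside 21.01% of all genes, *Elob* among them (-0.11, adjusted p = 0.0351, limma).

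Genes of coactivators and their CITED competitors gave 1 higher and 5 lower of 9 tested (median -0.18), beside 11.1% and 36.9% of all genes, and 2 higher and 2 lower with median-ratio scaling, beside 19.8% and 20.4%. *Cited1*, a relative of *Cited2* known as a beige adipocyte marker, rose by 0.94 (adjusted p = 0.00063, limma). The largest falls were those of the acetyltransferase gene *Crebbp* (-0.40), the steroid receptor coactivator gene *Ncoa1* (-0.33) and the Mediator kinase gene *Cdk8* (-0.22), the last of which was not called with either scaling alternative. Of 10 genes that bear on alpha subunit protein stability, 1 was higher, the deubiquitinase gene *Usp8* (0.15), and 4 lower, led by the chaperone gene *Hsp90ab1* (-0.40), *Os9* (-0.29) and *Usp20* (-0.21). These shares are near the 11.1% and 36.9% of all genes. With median-ratio scaling the count was 4 higher and 2 lower (19.8% and 20.4% of all genes). With quantile normalization it was 3 higher and 4 lower (19.15% and 21.01% of all genes), so the balance depends on the scaling. *Usp20* was called with neither.

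Of 14 other genes of PAS-domain proteins, the wider family of the HIF subunits, 7 were tested, all of them circadian clock genes, and 4 were higher and 1 was lower (11.1% and 36.9% of all genes, list median 0.32). Of the 4, 3 were *Per* genes, whose products have PAS domains but no bHLH domain, and of the bHLH-PAS genes proper *Npas2* was higher and *Clock* lower. The largest rises were those of *Per2* (0.65), *Npas2* (0.62) and *Per1* (0.52). *Clock* fell by 0.27, a call lost with quantile normalization. Of 27 other oxygen-dependent dioxygenase genes tested, 7 were higher and 8 lower (11.1% and 36.9% of all genes, list median -0.10). With median-ratio scaling 9 were higher and 3 lower (19.8% and 20.4% of all genes). The histone demethylase genes *Kdm3a* (0.59), *Kdm6b* (0.42) and *Kdm4b* (0.41) had the largest rises, and *Kdm3a* is also in the feedback and canonical target lists. The collagen prolyl hydroxylase gene *P4ha3* fell from 3.02, 3.25 and 2.69 TPM in K382R cells to 0.339, 0.298 and 0.602 TPM in K382Q cells, and *Plod3* (-0.49) and *Riox1* (-0.41, not called with median-ratio scaling) followed. Its high K382R libraries carried *P4ha3* past the filter of 0.5 TPM, so its place among the 8 lower is not independent of the filter.

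**Figure D4:**
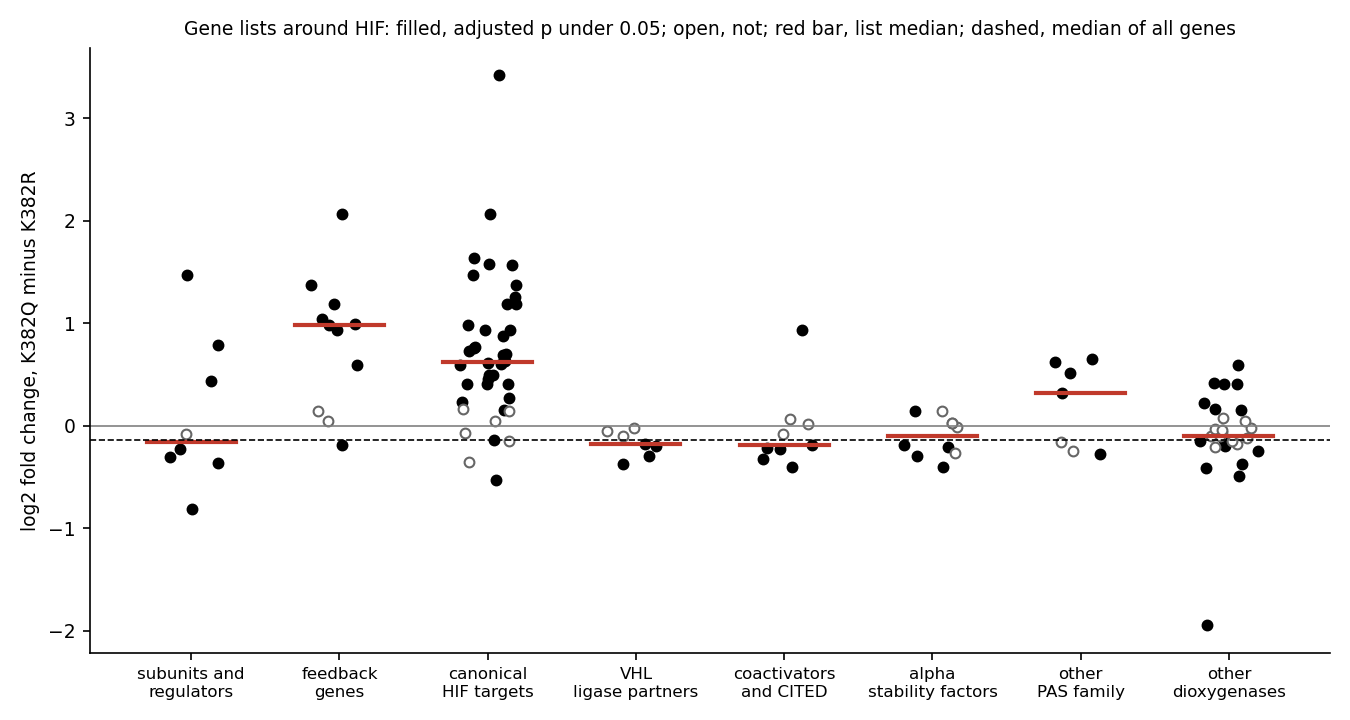
Log2 fold change, K382Q minus K382R (vertical axis), of each gene tested in 8 groups: the HIF subunits and regulators, and 7 lists of other pathway genes. Some genes stand in several lists, such as *Kdm3a* (dioxygenases, feedback genes and canonical targets) and *Cited2* (coactivators and feedback genes). Filled points have an adjusted p under 0.05, red bars are list medians and the dashed line is the median of all genes, and the feedback genes (0.99) and canonical targets (0.62) have the highest medians.

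The state of the cells also differed between the mutants. All 7 preadipocyte and stromal genes tested of 10 were lower in K382Q cells, beside 36.9% of all genes. With median-ratio scaling 6 were lower, beside 20.4%, and with quantile normalization 5, beside 21.01%. Of the 7, *Eng* passed the filter only through its K382R libraries, at 0.604 to 1.21 TPM against 0.253 to 0.401 TPM in K382Q cells. Its place in the count is therefore not independent of the filter. The 10 together had a summed TPM of 570.6 to 615.0 against 940.7 to 980.0, and *Dpp4* was listed at 0. Most of that sum was the single gene *Ly6a*, at a mean of 466.6 TPM in K382Q and 767.1 TPM in K382R cells. Of 12 adipocyte genes, 3 were higher and 4 lower, beside 11.1% and 36.9% of all genes, against 7 higher and 3 lower with median-ratio scaling (19.8% and 20.4% of all genes) and 2 higher and 4 lower with quantile normalization (19.15% and 21.01%). Their summed TPM was 56182 to 59770 against 47110 to 48346, mostly *Fabp4*, and the sum of the other 11 was 9478 to 9788 against 9694 to 9805. On TPM as deposited, the 4 lower were *Adipoq* (-1.28), *Cebpa* (-0.81), *Pparg* (-0.43) and *Lpl* (-0.19). Reads of *Pparg* include those of the retroviral copy, so it does not describe the state of the cells alone. The 3 higher were *Cd36* (0.43), *Fabp4* (0.34) and *Cidec* (0.27). Of 10 endothelial genes, 2 were tested, and *Emcn* and *Erg* were at 0. The summed TPM of the 10 was 14.3 to 16.6 against 17.7 to 19.7. Most of it was *Egfl7*, at a mean of 13.6 TPM in K382Q and 17.0 TPM in K382R cells. *Egfl7* was called lower (-0.31, adjusted p = 0.0105, limma), beside 36.9% of all genes, but not with median-ratio scaling (-0.16, adjusted p = 0.12). *Pecam1*, at means of 1.75 and 1.53 TPM, was not called. Of 10 leukocyte genes, 3 were tested, and *Adgre1* and *Cd3e* were at 0. The summed TPM of the 10 was 11.7 to 12.8 against 13.3 to 16.5. Most of it was *Cd14* (means 7.64 and 9.64 TPM) and *Cd68* (4.08 and 4.14 TPM). *Cd14* was called lower (-0.32, adjusted p = 0.0203, limma), beside 36.9% of all genes, but not with median-ratio scaling (-0.17, adjusted p = 0.152). *Cd68* and *Fcer1g* were not called. *Hoxc9*, a subcutaneous depot gene, was expressed and was lower in K382Q cells, at a mean of 17.9 against 25.7 TPM. Its log2 fold change was -0.51 (adjusted p = 0.000195, limma), and -0.36 with median-ratio scaling. The brown fat lineage genes *Zic1* and *Meox1* were at 0. The part of the stromal difference in the levels of the HIF genes was not tested, and in bulk libraries fewer cells of a type and less RNA per cell cannot be told apart.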

How the data were processed

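RNA-seq was run on 3 libraries each of PPARγ2 K382Q- and K382R-overexpressing cells. Per the labels and the study's methods, reads were aligned to GRCm39 with HISAT2 and quantified by the authors with StringTie. The annotation release is not given in the sources used here. The deposited tables hold, per gene, coverage per base, FPKM and TPM. TPM was the main unit, FPKM an alternative, and coverage served for depth and for ratios. Depth is the 99th percentile of coverage over FPKM, in Gb.

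Genes that reached a TPM of 0.5 in 3 or more of the 6 libraries entered limma 3.58.1 (R 4.3.3), as log2(TPM + 0.5). The variance prior followed the mean level, K382R was subtracted from K382Q, and p-values were Benjamini-Hochberg adjusted over all 15426 genes. A symbol with several identifiers was taken as the one with the highest mean TPM. The labels call the replicates biological but do not say whether they were separate transductions or cultures, so p-values measure the spread between these samples, which may be technical. The fit was tested on simulated libraries of 15426 genes, with 50 genes changed at each size. It recovered 62% of those changed by 0.5 log2, 92% at 1, 92% at 1.5 and 96% at 2, with 10 false calls. Small changes can therefore be missed. No 2 libraries were alike, with at most 0.0583% identical values.

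The 10 genes and all lists were chosen with earlier results of these data known. Named genes were the 3 largest rises and 3 largest falls per list among those called, the VHL partners and *Cited2*. Adipocyte, stromal, endothelial and leukocyte lists are given by counts and summed TPM, with some genes named, among them those that carry most of a sum. Alternatives were other pseudocounts, filters, FPKM, scalings, variance settings, a replicate block and leaving out each library. Symbols of 9 of the 10 genes matched the RefSeq promoter table.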

Additional observations from a re-analysis of the deposited data

How the results depend on the processing

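*Hif1a*, *Epas1*, *Arnt*, *Egln1*, *Egln3* and *Vhl* kept their direction and their call under all 16 alternatives each, with log2 fold changes of -0.86 to -0.66, -0.40 to -0.22, -0.33 to -0.14, 0.76 to 0.94, 1.44 to 1.62 and 0.41 to 0.60. *Egln2* was not called with median-ratio scaling or quantile normalization, which centre the median of all genes near 0, and *Hif1an*, never called, turned to 0.066 and 0.077 there. A fold change over 1.5 in place of 2 gave 3 genes in place of 1. The share of all genes past 1.5-fold was not counted, so these 3 cannot be set against it. Shared replicate numbers did not pair the replicates (correlations of their deviations -0.018, 0.051 and 0.022). The replicate block left 3 genes higher, 4 lower and 31 canonical targets higher, with no call of the 8 genes changed. Under the block 10.37% of all genes were called higher and 34.92% lower. Leaving out 1 library gave 3 genes higher and 4 lower each time.

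Canonical targets called lower numbered 1 with no filter and with FPKM, 0 with median-ratio scaling and quantile normalization, 3 with no intensity trend, and 1 to 2 with a library left out. They fell to 1 without K382R replicate 1 or 2. Feedback genes called lower numbered 0 with no filter, FPKM, either scaling or no intensity trend, and 0 to 1 with a library left out, the call of *Cited2* being lost without K382Q replicate 1 or 3 or K382R replicate 3.

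Ratios between genes depended on the unit. The *Arnt2* to *Arnt* log2 ratio, -1.33 on TPM, was 0.077 with a pseudocount of 0.5, as *Arnt2* is so low, and the shares of *Arnt* and *Arnt2* turned to -0.052 and 0.052 percentage points. With coverage in place of TPM, the difference between the mutants was 0.60 for *Arnt* to *Hif1a*, and in percentage points -4.55 for the share of *Hif1a*, 4.47 for *Epas1*, 0.0824 for *Hif3a* (0.129 with the pseudocount), 0.0239 for *Arnt*, -0.0239 for *Arnt2*, and -7.16, -6.97 and 14.1 for *Egln1*, *Egln2* and *Egln3*. No counts were used, so depth limits *Hif3a* and *Arnt2* above all.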
